A study of Mus musculus with 22 samples.

Results

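The data described here are the 6 libraries of CD8+ T cells taken 24 h after activation from mice of the Tcaim KI Cd4Cre line, out of 22 libraries in the series. Of these, 3 came from mice labelled hocre, called knock-in (KI) here, and 3 from mice labelled wtcre, called wild-type (wt). The libraries were chosen by line, genotype and time point as labelled. Naive CD8+ T cells of spleen and lymph nodes had been enriched by magnetic depletion of other cells. They were then stimulated through the T cell receptor with plate-bound anti-CD3 and through its main costimulatory receptor with soluble anti-CD28. Both genotype names carry cre, and the line name refers to Cre driven by the Cd4 promoter, which is active during thymic development in both CD4 and CD8 lineages, so Cre acts before the naive stage. The age of the mice, the insertion site of the knock-in and the number of founders were not in the labels. Each of experiments 1, 3 and 5 supplied 1 KI and 1 wt mouse of the same sex, male in experiments 1 and 3 and female in experiment 5, and the libraries were compared in these 3 pairs. The same 6 mice also gave a naive library and a 48 h library, and these 18 libraries entered the fit.

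Tcaim encodes a mitochondrial protein named as an inhibitor of T cell activation. A naive CD8+ T cell is small and quiescent, and it is kept so by transcription factors such as KLF2 and by interleukin-7 signalling. Engagement of the T cell receptor together with CD28 makes the cell grow, synthesise lipids, nucleotides and ribosomes, enter its first division after about a day, and begin to express effector molecules such as granzymes. The comparison at 24 h asks how far the transcripts of these programmes differ when Tcaim is expressed from the knock-in allele.

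The 6 libraries held 71870326 to 93489115 counts. Tcaim (ENSMUSG00000046603, chromosome 9, 122805539 to 122836334, GRCm38) was measured at 226, 237 and 178 CPM (counts scaled by library size with TMM factors) in the KI libraries of experiments 1, 3 and 5, and at 9.85, 8.37 and 10.1 CPM in the wt libraries. Every KI library was far above every wt library, with a log2 fold change of KI over wt (log2FC) of 4.49 (SE 0.147, adjusted p = 8.97e-09), so the labels and the targeted transcript went together in all 6 libraries. Of 15 other tested genes within 500 kb of Tcaim, 1 was called, where 4.08% of all tested genes were. This gene, Kif15, encodes a mitotic motor and is described with the mitotic genes. The 6 CD8 T cell markers summed to 3770 to 4260 CPM in KI and 3390 to 3660 CPM in wt libraries. The 8 B cell markers summed to 821 to 1490 CPM in KI and 768 to 1240 CPM in wt, with the highest sum of each genotype in experiment 5. The 9 myeloid markers summed to 15.8 to 48.2 CPM in KI and 13.3 to 28.6 CPM in wt. In experiment 5 the myeloid marker Lyz2 was at 23 CPM in KI and 8.71 CPM in wt. The sum of 5 stromal and endothelial markers, 171 to 206 CPM in KI and 114 to 158 CPM in wt, was almost all Pecam1, a gene that T cells also express. The 4 gamma-delta T cell markers summed to 13.4 to 21 CPM in KI and 8 to 16 CPM in wt. Sums of this list and of the B cell, CD8 T cell, stromal, dendritic cell, and red cell and platelet lists were higher in KI in each of the 3 pairs. Those of the CD4 T cell, NK cell and myeloid lists were not. The largest dendritic cell sum was 7.76 CPM, and the largest of red cells and platelets 6.43 CPM. Of all marker genes 1 was called at 24 h, Klrk1 of the NK cell list, which was lower in KI, and the part of other cells in the results was not tested. In bulk libraries fewer cells of a type and less RNA per cell cannot be told apart.

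At 24 h 826 of 20228 tested genes (4.08%) differed between KI and wt at a Benjamini-Hochberg adjusted p under 0.05 in edgeR's quasi-likelihood test with the experiment as a block. Of these, 480 were higher in KI (2.37% of tested genes) and 346 lower (1.71%), and 825 of the 826 had the same direction in the 3 pairs. The exception, Gm27520, was at 0 CPM in both libraries of experiment 3. Among called genes 86 were at least 2-fold higher and 25 at least 2-fold lower, and the median size of a called change was 0.61 on the log2 scale. In 376 of the 480 higher and 134 of the 346 lower genes the KI and wt libraries did not overlap. Over all tested genes 11.1% had every KI library above every wt library and 9.6% every one below. The median log2FC of all tested genes was 0.0143. With median-of-ratios scaling in place of TMM factors 43.6% of 909 called genes were higher, against 58.1% of 826, and the median over all genes was -0.0307.

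**Figure D1:**
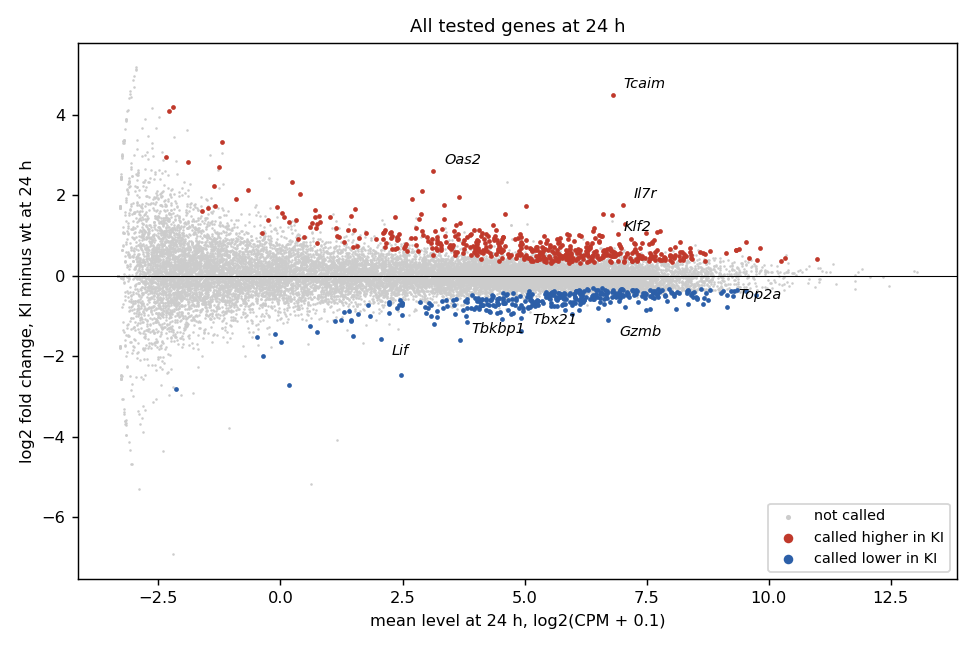
Log2 fold change of KI over wt at 24 h (vertical axis) against the mean level of each tested gene at 24 h, as log2 of CPM plus 0.1 (horizontal axis); red points were called higher, blue points lower and grey points not called. Tcaim stands at 4.49, and called genes lie at all levels, 480 above and 346 below 0.

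The number of calls depended on the pairing and on which experiment was left out. Without the block, the same 18 libraries gave 13 calls, and all 22 libraries gave 1, which was Tcaim. The block fitted to all 22 libraries gave 18, and the block fitted to the 6 libraries alone gave 1089. DESeq2 with the block called 1966 genes and limma-voom 1124. Without experiment 1 there were 8 calls and without experiment 3 there were 48, while without experiment 5 there were 1168. All of the 826 genes that were still tested, 822 to 826 of them, had the same direction under each of these fits. They were chosen by the paired fit on these same libraries, so this agreement follows largely from the choice and is no independent check. A gene is said to be called only under the paired fit of 18 libraries.

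**Figure D2:**
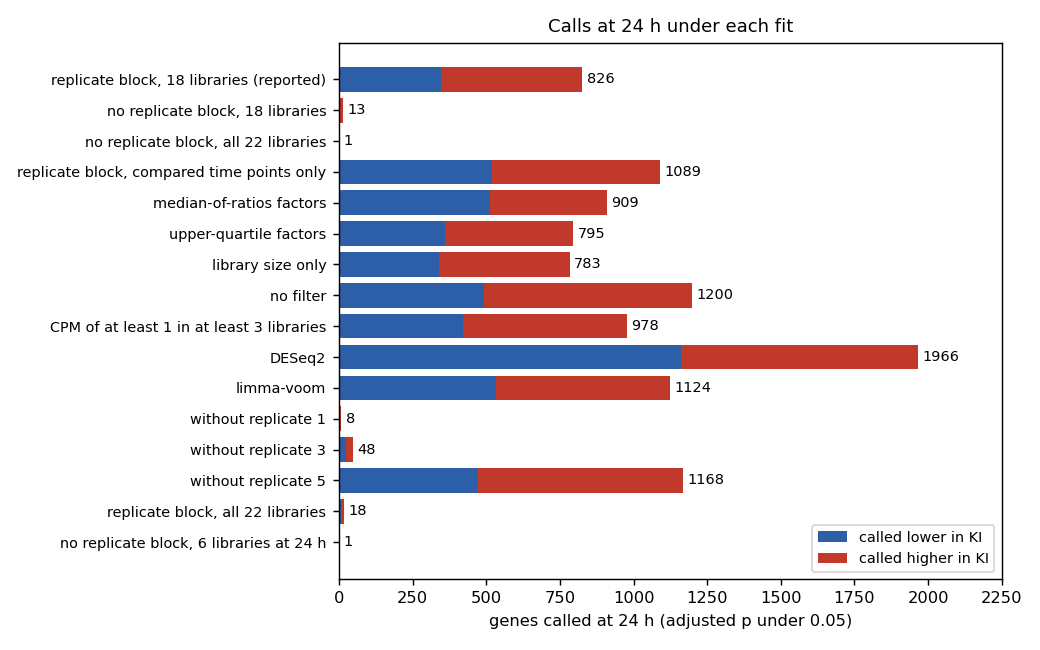
Number of genes called at 24 h (horizontal axis) under the reported fit and each alternative (rows), split into genes lower in KI (blue) and higher in KI (red). Fits without the block gave 1 to 13 calls, against 826 in the reported fit and 1966 with DESeq2.

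Genes of mitosis were lower in KI cells. Of 29 tested genes of the spindle, kinetochore and mitotic kinases, 25 were called lower, against 1.71% of all tested genes, and none higher. The median log2FC was -0.73, with a range of -0.99 to -0.16. In 28 of the 29 genes the KI library was below the wt library of its own experiment in all 3 pairs, a pattern found in 20.1% of all tested genes. Tpx2, which activates Aurora A at the spindle (chromosome 2, 152847964 to 152895321), was at 39.6, 78.4 and 28 CPM in the KI libraries of experiments 1, 3 and 5 and at 70.1, 154 and 46.7 CPM in the wt libraries. Both genotypes were highest in experiment 3 and lowest in experiment 5, so the groups overlapped although every pair differed in 1 direction; the log2FC was -0.85 (SE 0.0883, adjusted p = 0.0022). Kif11, the motor that separates spindle poles (chromosome 19, 37376403 to 37421859), was at 79.2, 155 and 56.4 CPM in KI and 145, 274 and 89.1 CPM in wt, a log2FC of -0.78 (SE 0.0977, adjusted p = 0.0035). Top2a, the topoisomerase that untangles sister chromatids (chromosome 11, 98992943 to 99024189), was at 368, 641 and 246 CPM in KI and 647, 1109.5 and 397 CPM in wt, with a log2FC of -0.76 (SE 0.101, adjusted p = 0.00421). The order of the experiments was the same for these 3 genes in both genotypes, and in no gene of the list were all KI libraries below all wt libraries.

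Gtse1, Psrc1, Ncapg, Ncapg2, Ect2, Kif14 and Kif15 were not on the mitotic list, and were named for their small p or large change. Gtse1, a microtubule-binding protein of G2 and mitosis (chromosome 15, 85859745 to 85876573), was at 13.7, 19.1 and 11.8 CPM in KI and 27, 41.7 and 25.5 CPM in wt. Here the groups did not overlap, and the log2FC was -1.07 (SE 0.118, adjusted p = 0.0022). Psrc1, a microtubule-regulating protein of the spindle, was at 4.96, 5.2 and 5.56 CPM in KI and 9.62, 10.3 and 17.2 CPM in wt, also without overlap. The checkpoint kinase Bub1, the condensin subunits Ncapg and Ncapg2, the cytokinesis factor Ect2 and the motors Kif14 and Kif15 had log2FC values between -0.89 and -0.65. All of these had overlapping groups and the KI library lower in each pair. Mki67, the proliferation antigen, was at 270, 499 and 154 CPM in KI and 398, 854 and 257 CPM in wt, and Cdk1, the mitotic kinase, at 43.2, 67.1 and 38.2 CPM against 74.4, 122 and 50 CPM. Both were called, with log2FC values of -0.69 and -0.68. These 2 genes, and below S1pr1, Klf3, Btg1, Tob1, Tcf7, Foxo1, Ccr7, Bach2, Rsad2, Nampt and Gm27520, were chosen after their values were seen.

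Many mitotic promoters hold the cell cycle homology region, whose core TTTGAA is bound by the DREAM and MuvB complexes. In RefSeq promoter windows of GRCm38.p6, 250 bases before to 50 after the start site, TTTGAA was found on either strand in 16 of 24 mitotic list genes with a window (66.7%), in 12 of the 20 called ones (60%) and in 20.2% of 27025 genes. A match describes these letters only. The 200 bases before the start site are shown for 3 of the lower genes, to show where the element lies, with TTTGAA or its reverse complement in capitals. They are Kif11 (chr19:37376182-37376381, plus strand), Ncapg2 (chr12:116405236-116405435, plus strand) and Top2a (chr11:99024190-99024389, minus strand).
Kif11: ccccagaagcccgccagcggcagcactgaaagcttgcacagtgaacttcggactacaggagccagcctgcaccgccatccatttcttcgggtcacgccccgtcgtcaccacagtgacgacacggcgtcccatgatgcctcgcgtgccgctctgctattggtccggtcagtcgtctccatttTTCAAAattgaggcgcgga
Ncapg2: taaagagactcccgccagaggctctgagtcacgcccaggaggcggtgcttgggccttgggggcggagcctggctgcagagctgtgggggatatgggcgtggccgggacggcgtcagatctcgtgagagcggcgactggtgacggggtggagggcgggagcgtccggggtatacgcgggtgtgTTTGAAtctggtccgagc
Top2a: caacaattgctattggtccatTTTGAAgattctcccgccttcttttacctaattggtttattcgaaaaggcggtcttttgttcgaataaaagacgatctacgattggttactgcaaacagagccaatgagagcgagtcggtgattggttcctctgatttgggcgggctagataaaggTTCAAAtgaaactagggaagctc
The match nearest to the start began 19 bases before it in Kif11, 18 bases in Ncapg2 and 23 bases in Top2a, and Top2a had a further match 179 bases before it.

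Genes of DNA replication and of nucleotide supply were lower in KI by smaller amounts. Of 26 licensing and firing genes 12 were called lower, with a median log2FC of -0.37, and of 26 polymerase and fork genes 12 were called lower, with a median of -0.42. Of 23 nucleotide synthesis genes 13 were called lower, with a median of -0.42. None of the genes in these lists was called higher, and all of them had a negative fold change. The share of all tested genes called lower was 1.71%. Cdc6, which loads the replicative helicase, was at 66.7, 83.9 and 53.9 CPM in KI and 113, 123 and 73.4 CPM in wt, a log2FC of -0.59 (SE 0.113, adjusted p = 0.0173). Clspn, a replication checkpoint protein at the fork, was at 65, 96 and 41 CPM in KI and 118, 145 and 77.4 CPM in wt, a log2FC of -0.79 (SE 0.14, adjusted p = 0.011). In both genes the KI library of experiment 3 lay above the wt library of experiment 5, so the groups overlapped.

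Rrm2, the regulated subunit of the enzyme that makes deoxynucleotides (chromosome 12, 24708241 to 24714146), was at 117, 199 and 95.8 CPM in KI and 238, 343 and 152 CPM in wt. Its log2FC was -0.82 (SE 0.121, adjusted p = 0.00544), the largest decrease of the nucleotide list. The deoxynucleotide genes Rrm1 and Tyms were also called, with log2FC values of -0.60 and -0.65. Of 22 genes of G1/S control 7 were called lower, against 1.71% of all tested genes, and none higher, with a median of -0.32. They included the S phase cyclin gene Ccne1 (-0.59), the phosphatase Cdc25a (-0.50) and E2f8 (-0.81). The CDK inhibitor gene Cdkn1a, a p53 target, was at 4.63, 4.72 and 6.96 CPM in KI and 7.14, 7.29 and 23.8 CPM in wt, with a log2FC of -1.02 (SE 0.235, adjusted p = 0.0337). Its groups did not overlap, but the KI library of experiment 5 was close to the wt libraries of experiments 1 and 3. Of the 4 CDK inhibitor genes, 2 were higher and 2 lower in KI in all 3 pairs, and only Cdkn1a was called. In the 2 higher ones every KI library was above every wt library, against 11.1% of all tested genes. The largest log2FC of the 4 was 0.705. In the whole G1/S list 4 of 22 genes had a positive log2FC.

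**Figure D3:**
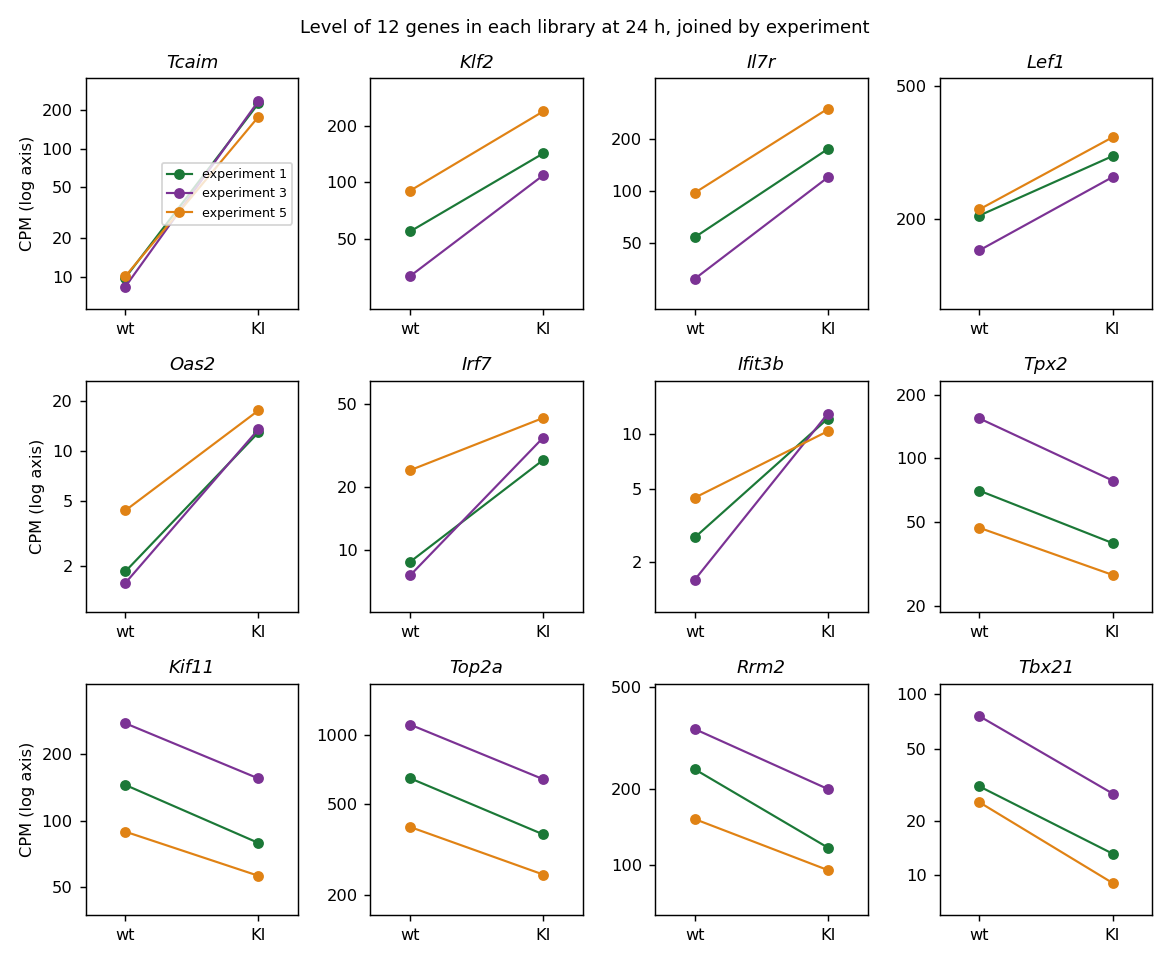
CPM on a log axis (vertical) of 12 genes in the 6 libraries at 24 h, wt on the left and KI on the right of each panel, with the 2 libraries of an experiment joined by a line in 1 colour. All lines of a panel point the same way, while for Tpx2, Kif11, Top2a and Rrm2 the experiments differ from each other by as much as the genotypes. Genes named for a small p had been chosen with the same direction in all pairs.

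The calls of these lists differed with the experiment left out. The 25 mitotic calls became 0 without the block in the same 18 libraries, 0 without experiment 1, 5 without experiment 3 and 27 without experiment 5, while the median of the list stayed between -0.80 and -0.67 in all fits run. The 12 licensing, 12 fork and 13 nucleotide calls each became 0 without the block, without experiment 1 and without experiment 3. Without experiment 5 they became 16, 18 and 7. Total counts overlapped between the groups, with the larger total in the KI library of each pair, and the part of depth was not tested. The share of counts on mitochondrial genes was 2.13% to 2.65% in KI and 2.25% to 2.47% in wt.

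Genes of lipid synthesis were lower in KI in part. Of 27 cholesterol genes 7 were called lower, with a median log2FC of -0.39, and of 17 fatty acid genes 6 were called lower, with a median of -0.35. None was called higher, while among all tested genes 1.71% were called lower and 2.37% higher. Sqle, the squalene epoxidase of sterol synthesis (chromosome 15, 59315077 to 59331192), was at 53.7, 55 and 49.7 CPM in KI and 79.6, 96 and 63.9 CPM in wt, without overlap, at a log2FC of -0.58 (SE 0.135, adjusted p = 0.0355). The KI libraries were close together and the wt libraries spread. The desaturase gene Scd2 was at 186, 260 and 119 CPM in KI and 314, 593 and 176 CPM in wt, a log2FC of -0.84 (SE 0.123, adjusted p = 0.00544), with overlapping groups. Acaca, which makes malonyl-CoA, was at 62.4, 64 and 47.6 CPM in KI and 81.2, 101 and 70.5 CPM in wt, and was called at -0.54. The 7 cholesterol and 6 fatty acid calls each became 0 without the block, without experiment 1 and without experiment 3. Without experiment 5 there were 13 cholesterol calls, with a median of -0.54, and 6 fatty acid calls.

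Of 12 genes of serine and one-carbon metabolism 4 were called lower, against 1.71% of all tested genes, with a median of -0.37. Psat1, of serine synthesis, was at 180, 227 and 157 CPM in KI and 277, 366 and 234 CPM in wt, a log2FC of -0.63 (SE 0.137, adjusted p = 0.0272), and the mitochondrial folate enzyme gene Mthfd2 was called at -0.48. Without the block or without experiment 1 or 3 none of the list was called, and without experiment 5 there were 5 calls. Of 31 ribosome biogenesis genes none was called, yet all 31 had a negative fold change, with a median of -0.31 and a range of -0.50 to -0.14. In 25 of these 31 genes every KI library was below every wt library, against 9.6% of all tested genes. Nop58, a core protein of box C/D ribonucleoproteins, was at 314.3, 325.2 and 302.6 CPM in KI and 412.7, 453.1 and 391.8 CPM in wt, with a log2FC of -0.41 (SE 0.11) and an adjusted p of 0.0547. DESeq2 called 12 of the 31 lower, and the block fitted to the 6 libraries called 7.

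Of 21 glycolysis genes 1 was called, Hk2, the inducible hexokinase, at 43.8, 53.5 and 45 CPM in KI and 55.7, 80.7 and 59.4 CPM in wt (log2FC -0.45, SE 0.108, adjusted p = 0.0399). Over all tested genes 4.08% were called, and 1 of 21 is near that share. The median of the glycolysis list was -0.04, and 0.05 without experiment 3. None of 30 nuclear respiratory chain genes was called, with a median of -0.12 and pair means of -0.23, -0.20 and 0.07 in experiments 1, 3 and 5, so the sign differed between experiments. None of 11 genes of the mitochondrial genome was called. Of 26 genes of mitochondrial translation and import 2 were called lower, the chaperonin gene Hspd1 (-0.48) and the import receptor gene Tomm70a (-0.35). Of 26 genes of mitochondria-ER contacts, the structures named in the series title, 1 was called higher and 1 lower, with a median of -0.08. Over all tested genes 2.37% were called higher and 1.71% lower. Osbpl5, a lipid transfer protein of membrane contacts, was at 27.6, 25.5 and 32.7 CPM in KI and 18.2, 15.9 and 21.4 CPM in wt, a log2FC of 0.63 (SE 0.0966, adjusted p = 0.00625). Canx, the ER chaperone calnexin, was at 483, 515 and 411 CPM in KI and 616, 655 and 547 CPM in wt, a log2FC of -0.37 (SE 0.0859, adjusted p = 0.0345). Neither gene's groups overlapped. No gene was called among 27 of the unfolded protein and amino acid responses, 21 antioxidant genes, 16 of fatty acid oxidation, 13 of amino acid uptake or 11 of the Myc network; at this number of pairs a missing call does not show equal levels.

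Genes of naive and quiescent T cells were higher in KI cells. Of 30 tested genes 16 were called higher, against 2.37% of all tested genes, and none lower. The median log2FC was 0.45, with pair means of 0.57, 0.70 and 0.34 in experiments 1, 3 and 5. In 22 of the 30 the KI library was higher in all 3 pairs, against 22.3% of all tested genes. In 16 every KI library was above every wt library, against 11.1% of all tested genes. Klf2, the transcription factor of quiescence and of recirculation through lymph nodes (chromosome 8, 72319033 to 72321656), was at 143, 109 and 239 CPM in KI and 54.7, 31.6 and 90.3 CPM in wt, a log2FC of 1.52 (SE 0.141, adjusted p = 0.00105). Il7r, the interleukin-7 receptor (chromosome 15, 9505788 to 9530176), was at 175, 120 and 299 CPM in KI and 53.7, 30.8 and 97.3 CPM in wt, a log2FC of 1.76 (SE 0.21, adjusted p = 0.00343). For both genes the lowest KI library stood above the highest wt library, experiment 5 was highest in each genotype and experiment 3 lowest. In the naive libraries of the same mice Klf2 had a mean of 562 CPM in KI and 443 CPM in wt, and Il7r 563 and 556 CPM. The naive difference of neither was called, and the levels at 24 h were thus lower than in naive cells in both genotypes.

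The egress receptor S1pr1, whose gene KLF2 activates, was at 167, 136 and 248 CPM in KI and 71.8, 38.1 and 140 CPM in wt, with overlapping groups and a log2FC of 1.29 (SE 0.246, adjusted p = 0.0164). The naive and memory transcription factor gene Lef1 was at 308, 267 and 351 CPM in KI and 205, 161 and 214 CPM in wt, at 0.68 (SE 0.0923, adjusted p = 0.00453), and its groups did not overlap. Il6ra (0.91), Klf3 (0.94), Btg1 (0.58) and Tob1 (0.60), the last 2 being antiproliferative factors, were also called. Not called were Tcf7 (0.28, adjusted p = 0.0793), Foxo1 (0.29, adjusted p = 0.106), Ccr7 (0.05, adjusted p = 0.817) and Bach2 (-0.03, adjusted p = 0.923). The 16 calls became 1 without the block, 2 without experiment 1, 4 without experiment 3 and 16 without experiment 5, and the median lay between 0.38 and 0.57 in all fits run.

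Other genes with the smallest p among those higher in KI were Sgk1, a kinase downstream of PI3K, at 8.12, 6.21 and 15.5 CPM in KI and 3.63, 2.44 and 8.57 CPM in wt (log2FC 1.11), the filamin regulator Rflnb (0.85), the small GTPase gene Arl4c (1.04), the sphingosine 1-phosphate receptor gene S1pr4 (0.62), Gpsm3 (0.61), Ttyh3 (0.62) and the efflux transporter gene Abcb1a (1.04). Of 14 homing and adhesion genes 4 were called higher, among them the chemokine receptor genes Cxcr4 (0.86) and Ccr9 (0.93), and 1 lower, the integrin gene Itgb1 (-0.37). Of 13 cytokine receptor genes 4 were called higher and none lower. They were Ifngr1 (0.81), Il18r1 (0.71), Tgfbr2 (0.50) and Il4ra (0.40). Among all tested genes 2.37% were called higher and 1.71% lower. The homing list had a median of 0.34 and the cytokine receptor list one of 0.13. In the latter 4 of 13 genes had a negative log2FC, and the pair means were 0.26, 0.21 and -0.11 in experiments 1, 3 and 5. The long noncoding gene Gm43698 (ENSMUSG00000107266), at 14.9, 12.7 and 30.3 CPM in KI and 3.61, 2.31 and 11 CPM in wt, had one of the 5 largest increases (1.97) among called genes with a mean of at least 10 CPM in either group.

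**Figure D4:**
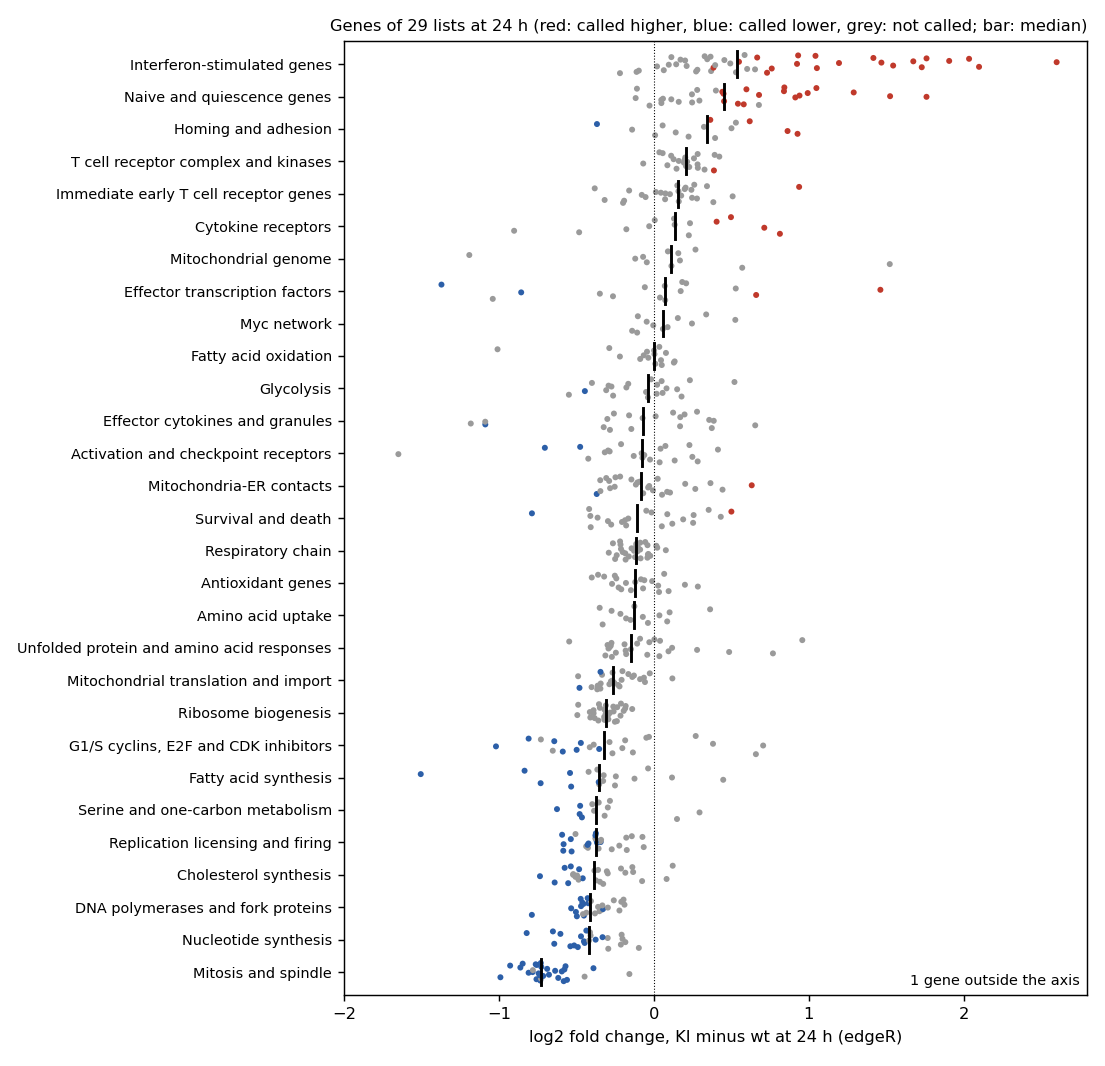
Log2 fold change of KI over wt at 24 h (horizontal axis) of each tested gene of 29 lists (rows, ordered by their median, drawn as a bar); red points were called higher, blue points lower, grey points not called, and 1 gene lies outside the axis. Mitosis and spindle lies lowest at -0.73, and interferon-stimulated genes lie highest at 0.54.

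Interferon-stimulated genes were higher in KI cells at 24 h, as they were in the naive cells of the same mice. Of 44 tested genes 20 were called higher at 24 h, against 2.37% of all tested genes, and none lower. The median log2FC was 0.54, with pair means of 0.72, 1.05 and 0.28 in experiments 1, 3 and 5. By role, 16 of 23 antiviral effectors and 4 of 9 regulators were called, and none of 12 interferon-inducible GTPases. Oas2, a sensor of double-stranded RNA (chromosome 5, 120730333 to 120749853), was at 12.9, 13.5 and 17.6 CPM in KI and 1.86, 1.59 and 4.36 CPM in wt, a log2FC of 2.60 (SE 0.32, adjusted p = 0.00343). Irf7, the transcription factor that amplifies type I interferon production, was at 27, 34.6 and 43 CPM in KI and 8.73, 7.52 and 24.1 CPM in wt, at 1.54 (SE 0.218, adjusted p = 0.00477). Ifit3b, of the family that binds foreign RNA, was at 12.2, 13 and 10.4 CPM in KI and 2.74, 1.61 and 4.51 CPM in wt, at 2.1 (SE 0.333, adjusted p = 0.00759). In these 3 genes the wt library of experiment 5 was the highest of its group and the groups did not overlap. Rtp4 (1.76), Oasl1 (1.67) and Ifi27l2a (0.89) were also called.

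These transcripts were far more abundant before activation. Oas2 had a naive mean of 273 CPM in KI and 46.7 CPM in wt, Irf7 of 330 and 98.1 CPM, and Ifit3b of 58.5 and 8.58 CPM. In naive cells 23 of the 44 genes were called higher, out of 64 genes called higher among all tested (0.316%) and 3 called lower (0.0148%), 67 in all (0.331%). The median of the list was 0.97 in naive cells. Of the 20 genes called at 24 h, 17 were also called in naive cells. Irf7 and Phrf1 overlap on opposite strands, and Oasl1 overlaps an antisense gene. Whether counting used strand was not given in the sources used here, so these genes cannot be told apart from their partners. Exons of Top2a, E2f8, Cdkn1a, Scd2, Lef1, Il6ra, Abcb1a and Rtp4 also overlap another annotated gene. Close relatives such as Ifit3 and Ifit3b or Oasl1 and Oasl2 could share reads. The 20 calls became 3 without the block, 0 without experiment 1, 3 without experiment 3 and 28 without experiment 5, and the median lay between 0.42 and 0.74 in all fits run.

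Interferon-stimulated promoters carry the interferon-stimulated response element, bound by ISGF3 and by interferon regulatory factors. The pattern GAAANNGAAA was found on either strand in the RefSeq window of 23 of 31 list genes that had one (74.2%), of 11 of the 16 called ones (68.8%) and of 3.99% of all genes. The 200 bases before the start of 2 called genes are shown with the element in capitals, Ifit3b (chr19:34607757-34607956, plus strand) and Rsad2 (chr12:26456453-26456652, minus strand), the gene of the antiviral enzyme viperin.
Ifit3b: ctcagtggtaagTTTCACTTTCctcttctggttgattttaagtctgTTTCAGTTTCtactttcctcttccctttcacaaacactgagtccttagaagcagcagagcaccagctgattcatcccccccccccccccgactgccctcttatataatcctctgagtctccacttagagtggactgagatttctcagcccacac
Rsad2: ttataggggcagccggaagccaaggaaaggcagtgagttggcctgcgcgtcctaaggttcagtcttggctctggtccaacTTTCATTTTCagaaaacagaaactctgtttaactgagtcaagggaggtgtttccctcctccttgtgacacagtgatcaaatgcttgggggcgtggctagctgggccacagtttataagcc
Matches began 188 and 154 bases before the start in Ifit3b and 120 bases before it in Rsad2. Rsad2 was at 1.45, 2.15 and 2.31 CPM in KI and 0.268, 0.599 and 0.59 CPM in wt, a log2FC of 2.04 (SE 0.362, adjusted p = 0.0114), without overlap.

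Effector genes were called in both directions. Of 15 effector transcription factor genes 2 were called lower and 2 higher, where 1.71% and 2.37% of all tested genes were. Tbx21, which encodes T-bet, the driver of cytotoxic effector fate (chromosome 11, 97098071 to 97115331), was at 13.2, 28.3 and 9.09 CPM in KI and 30.9, 75.4 and 25.3 CPM in wt, a log2FC of -1.37 (SE 0.199, adjusted p = 0.00541). Irf8 was at 101, 183 and 99.5 CPM in KI and 179, 338 and 181 CPM in wt, at -0.86 (SE 0.136, adjusted p = 0.00744). Both were highest in experiment 3 in each genotype, and the KI library of experiment 3 lay above the 2 remaining wt libraries in Irf8 and above that of experiment 5 in Tbx21. Id2, a regulator of effector survival, was higher at 40.7, 41.3 and 45.4 CPM in KI against 28.9, 21.4 and 31.4 CPM in wt (0.66, SE 0.136, adjusted p = 0.022). Prdm1, which encodes Blimp-1, was low at 0.97, 1.18 and 1.9 CPM in KI and 0.169, 0.446 and 1.06 CPM in wt (1.46, SE 0.324, adjusted p = 0.0288). Tbkbp1, an adaptor of the kinase TBK1 that lies next to Tbx21 on chromosome 11 (97136171 to 97151495), was at 4.77, 10.8 and 3.64 CPM in KI and 13.1, 31.6 and 12.6 CPM in wt. Its log2FC of -1.60 (SE 0.196, adjusted p = 0.00343) was the largest decrease among called genes with a mean of at least 10 CPM in either group, and its groups did not overlap.

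Of 21 effector cytokine and granule genes 1 was called, Gzmb, the granzyme B gene, at 31.4, 117 and 31.7 CPM in KI and 68, 332 and 49.3 CPM in wt, a log2FC of -1.09 (SE 0.222, adjusted p = 0.0211). The KI library of experiment 3 was above the wt libraries of experiments 1 and 5. Ifng was at 2.8, 2.14 and 1.78 CPM in KI and 1.88, 8.17 and 5.8 CPM in wt, and was not called (-1.09, SE 0.402, adjusted p = 0.152), with experiment 1 in the opposite direction. Of 21 activation and checkpoint receptor genes 2 were called lower, the transferrin receptor gene Tfrc and the checkpoint receptor gene Tigit (-0.48). Tfrc, which imports iron into growing cells, was at 244, 320 and 182 CPM in KI and 379, 534 and 304 CPM in wt, at -0.71 (SE 0.0905, adjusted p = 0.00377). Of 26 immediate early genes of the T cell receptor 1 was called, the cytokine feedback gene Socs3 (0.94), and of 22 genes of the receptor complex and its kinases 1, Cd247 (0.39), the zeta chain, which was at 267, 268 and 267 CPM in KI and 189, 213 and 212 CPM in wt. St14, which encodes the membrane protease matriptase, was at 9.29, 9.96 and 7.16 CPM in KI and 18.7, 20.7 and 18.8 CPM in wt, at -1.15 (SE 0.141, adjusted p = 0.00343). Of 22 survival and death genes 1 was called higher, Sesn1 (0.50), a stress-induced inhibitor of mTORC1 signalling, and 1 lower, Phlda3 (-0.79), both p53 targets. Over all tested genes 4.08% were called, 2.37% higher and 1.71% lower, so 1 call in a list of 21 to 26 genes is near that share.

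The genotype difference at 24 h was set beside that of the same mice in naive cells and at 48 h, which came from other libraries. At 48 h 3227 genes (16%) were called, 1782 higher (8.81%) and 1445 lower (7.14%). Of the 480 genes called higher at 24 h 265 were also called higher at 48 h, of the 346 called lower 142 were also called lower, and 4 genes were called in opposite directions. Of the 826 genes, 27 were called in the same direction in naive cells. The mitotic list had a median of -0.06 in naive cells, -0.73 at 24 h and -0.29 at 48 h, with 0, 25 and 9 genes called lower. Cholesterol genes had medians of 0.02, -0.39 and -0.96 and 0, 7 and 22 genes called lower. The quiescence list had medians of 0.08, 0.45 and 0.49, with 0, 16 and 18 genes called higher, of which 11 were called at both 24 h and 48 h. Antiviral effectors had medians of 1.56, 0.93 and 0.57, and the interferon-inducible GTPases of 0.31, 0.18 and 0.97, with 1, 0 and 12 of 12 called higher.

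**Figure D5:**
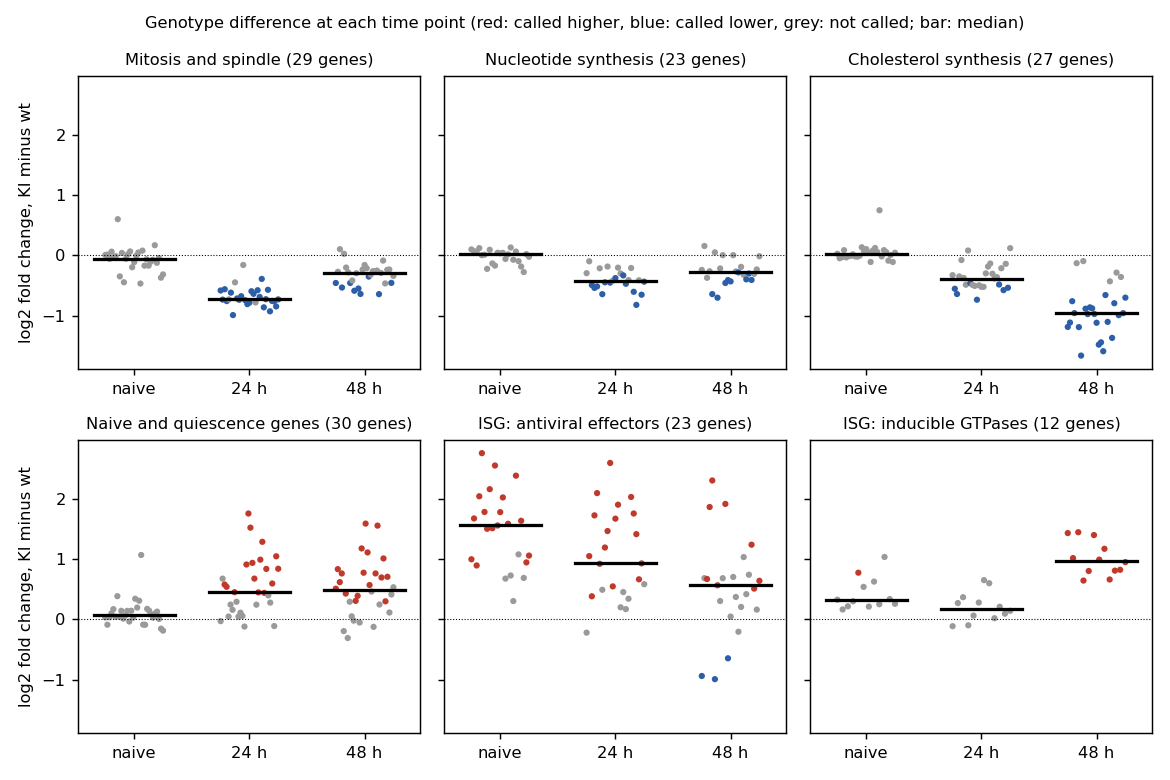
Log2 fold change of KI over wt (vertical axis) in naive cells, at 24 h and at 48 h (horizontal axis) for the genes of 6 lists, with medians as bars; red points were called higher, blue points lower and grey points not called. The median of mitotic genes is lowest at 24 h (-0.73), that of cholesterol genes at 48 h (-0.96), and that of antiviral effectors is 1.56 in naive cells and 0.57 at 48 h.

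Tested as a difference of differences, 7 genes (0.0346%) had a genotype difference at 24 h unlike that in naive cells and 78 (0.386%) one at 48 h unlike that at 24 h. No mitotic or quiescence gene of the lists was among either set. The fit had no term for the mouse, so libraries of 1 mouse at different times were treated as independent. Tcaim itself was among the 7, with a log2FC of 3.25 in naive cells and 4.49 at 24 h. Ly6a, the stem cell antigen Sca-1 and an interferon-responsive gene, was at 134, 136 and 138 CPM in KI and 40, 38.2 and 39.2 CPM in wt naive cells, but at 183, 312 and 165 CPM against 141, 286 and 152 CPM at 24 h. The difference thus went from 1.8 to 0.21, a change of -1.59 (SE 0.126, adjusted p = 0.000391). Lif, a cytokine of the interleukin-6 family, was at 1.16, 3.53 and 1.39 CPM in KI and 3.87, 10.8 and 3.64 CPM in wt at 24 h (-1.58), and its naive difference was 1.06 at levels of 0.572 to 2.09 CPM. Mlkl, the executor of necroptosis, was higher in naive KI cells (1.29) and lower at 24 h (-0.98). Nampt, of NAD synthesis, behaved the same way (0.45 and -0.35). Rflnb (1.02) and Gtse1 (-1.26) completed the 7. None of these 7 passed without experiment 1 or without experiment 5.

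Between 24 h and 48 h the differences of Cxcr6, a chemokine receptor of tissue-resident cells, and Klrk1, which encodes the activating receptor NKG2D, differed between the 2 times. Cxcr6 was at 65.1, 51.2 and 87.7 CPM in KI and 50.1, 33 and 55.9 CPM in wt at 24 h (0.55), and at 56.4, 50.7 and 57.5 CPM against 9.46, 12.7 and 14.9 CPM at 48 h (2.17). Klrk1 was at 17, 16 and 13.7 CPM in KI and 17.9, 28.6 and 25.5 CPM in wt at 24 h (-0.61), and at 18.4, 38.8 and 13.1 CPM against 110, 229 and 66 CPM at 48 h (-2.49). From 24 h to 48 h the wt level was lower in every experiment for Cxcr6 and higher in every experiment for Klrk1. The KI level of Klrk1 was higher at 48 h in experiment 3 and close to its 24 h level in the other two. The differences changed by 1.62 (SE 0.172, adjusted p = 0.00315) and -1.88 (SE 0.201, adjusted p = 0.00315). Idh1, the cytosolic isocitrate dehydrogenase gene, was at 6.15, 5.54 and 7.69 CPM in KI and 5.42, 4.5 and 6.49 CPM in wt at 24 h (0.24, not called). At 48 h it was at 5.41, 6.56 and 4.85 CPM against 16.2, 16.5 and 12.9 CPM (-1.44). The interferon-inducible GTPase gene Gbp2 had a log2FC of -0.11 at 24 h, not called, and of 1.43 at 48 h.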

How the data were processed

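RNA of CD8+ T cells had been sequenced from 22 libraries as stranded mRNA, paired-end, per the labels' protocols. The deposited count table, used for all tests, holds whole-number counts per Ensembl gene for each library, and the submitters' processing notes name TopHat2 2.1.0, Bowtie2 2.2.5, featureCounts and GRCm38, with the use of strand in counting not given in the sources used here. The FPKM table, as deposited by the authors, gave gene symbols and positions, and its values are not printed.

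Counts of the 18 libraries of the Tcaim KI Cd4Cre line were analysed with edgeR 4.0.16 in R 4.3.3. Genes were kept with filterByExpr (minimum count 10, minimum total 15), and libraries were scaled with TMM factors. The model held the experiment within time point as a block and the genotype within time point, and contrasts were tested with the quasi-likelihood F test. All p-values were adjusted by Benjamini-Hochberg over 20228 genes, and genes at an adjusted p under 0.05 are called. The model left 6 residual degrees of freedom. Each library is 1 mouse at 1 time, and the labels name the shared experiment. The model held no term for the mouse across time points. At 24 h, deviations from the group means of libraries of the same experiment had correlations of 0.273 to 0.438, and those of different experiments -0.409 to 0.118. At 48 h the lowest same-experiment correlation was 0.0715, and the highest of different experiments was 0.121. Deviations from a group mean cancel out within the group, so correlations of same and different experiments are not independent of each other. For a single gene an exact permutation test of 3 against 3 cannot go below p = 0.1. With the pairing kept, an exact test that flips the signs of the 3 pair differences cannot go below p = 0.25. Libraries of a group differed by more than sampling noise.

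Named genes were Tcaim, the 12 with the smallest p in each direction, the 5 largest changes in each direction among called genes with a mean of at least 10 CPM, up to 4 genes of each list by p, and the 3 genes in each direction with the smallest p in each contrast of differences. The 12 of each direction were taken only from called genes with the same direction in all 3 pairs, so agreement of their pairs was part of the choice. Only a part of these 144 is described. Members and lists were chosen with earlier results of these data known. Alternatives were other scaling factors and filters, DESeq2 1.42.0, limma-voom (limma 3.58.1), fits without the block or with other libraries, and leaving out each experiment. Promoter sequences are RefSeq's, on GRCm38.p6. The windows were also searched for other patterns. TCACNCCA, a sterol element, was in 3 of 19 cholesterol genes, 0 of 3 called ones and 4.97% of all genes. TTTCCCGC, an E2F site, was in 5 of 20 licensing genes, 3 of 22 polymerase and fork genes, 1 of 20 nucleotide genes and 1.24% of all genes. Among the called genes of these lists it was in 2 of 9, 2 of 9 and 0 of 11, in that order.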

Additional observations from a re-analysis of the deposited data

Results flagged for a closer look

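The results below had a genotype difference that differed between 2 time points of the same mice by the test of that difference itself. This test did not use the pairing of each mouse across time points. Between naive cells and 24 h the log2 fold change of KI over wt changed by -1.59 for Ly6a, -2.64 for Lif, -2.27 for Mlkl, -1.26 for Gtse1 and -0.80 for Nampt. It changed by 1.02 for Rflnb and 1.24 for Tcaim. Between 24 h and 48 h it changed by -1.69 for Idh1, -1.88 for Klrk1, -1.65 for Hemk1, a methyltransferase gene, -1.21 for Ifi27l2a, -1.63 for Oasl1 and -0.89 for Il18r1. It changed by 1.62 for Cxcr6, 1.55 for Gbp2, 1.71 for Mir6381 and 0.72 for Tfrc. Mir6381 lies in an exon of Gbp2 on the opposite strand, so their reads cannot be told apart. Tfrc was called lower at 24 h and had a log2 fold change of 0.01 at 48 h.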

How the results depend on the processing

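The number of genes called at 24 h, 826, rested on the experiment block. With no replicate block it was 13 in the same 18 libraries, 1 in all 22 libraries and 1 in the 6 libraries at 24 h. With the replicate block in all 22 libraries it was 18, and DESeq2 gave 1966. The block in all 22 libraries and the 6 libraries with no block were chosen after seeing the data. Leaving out 1 experiment gave 8 to 1168 calls, with the lowest number without experiment 1. At an unadjusted p under 0.05 there were 4038 genes in the reported fit, 2872 in the same libraries with no replicate block, 1909 in all 22 libraries with no block and 2107 without experiment 1. The other settings, which changed scaling, filter or tool, gave 783 to 1200 calls.

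The 7 genes whose genotype difference at 24 h differed from the naive one became 2 with no replicate block in 18 libraries and 0 in all 22, with or without the block, where 692 and 1010 genes had an unadjusted p under 0.05 in edgeR without and with it. They became 521 with the replicate block in the 12 libraries of both times, 12 with median-of-ratios factors, 4 with upper-quartile factors, 4 with library size only, 101 with no filter, 350 with DESeq2 and 3 with limma-voom. Leaving out 1 experiment gave 0 to 1. The 78 genes whose difference at 48 h differed from that at 24 h became 12 with no replicate block in 18 libraries, 1 in all 22 libraries, 1 with the replicate block in all 22 libraries and 14 with it in the 12 libraries of both times. They became 278 with no filter, 653 with DESeq2 and 121 with limma-voom, and 0 to 107 when 1 experiment was left out. The causes were not tested.

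Tcaim was called under every fit run, with a log2 fold change of 4.33 to 4.67. Of the other genes named, 78 lost their call with no replicate block in 18 libraries, 73 with the block in all 22 libraries, 79 without experiment 1, 59 without experiment 3 and 12 without experiment 5. All of these kept their direction, which the choice of called genes in these same libraries largely fixed. Among the genes named, the direction changed for 5 that were not called at 24 h, each when 1 experiment was left out. Their values then ranged from -0.435 to 0.0113 for Mir6381, -0.353 to 0.067 for Gbp2, -0.0596 to 0.213 for Hemk1, -0.0272 to 0.131 for Ccr7 and -0.156 to 0.134 for Bach2. The median of effector transcription factors ranged from -0.0524 to 0.137 when 1 experiment was left out. The medians of immediate early genes (-0.10 without experiment 1), the Myc network (-0.00061 without experiment 1), effector cytokines (0.10 without experiment 3) and glycolysis (0.05 without experiment 3) also changed sign. That of fatty acid oxidation, 0.0016, changed sign under several scalings and fits. Library depth at 24 h was at least 71870326 counts, and each genotype had 3 mice.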

Other observations

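Of 22 tested genes of the T cell receptor complex and its proximal kinases 1 was called at 24 h (4.08% of all tested genes were). In all, 21 had a positive log2 fold change, 15 were higher in all 3 pairs (22.3% of all tested genes were) and 9 had every KI library above every wt library (11.1% of all). The median of the list was 0.20, with pair means of 0.19, 0.15 and 0.28 in experiments 1, 3 and 5. The 14 ER chaperone genes of the unfolded protein response list had a median of -0.19, and in 7 every KI library was below every wt library (9.6% of all tested genes). None of these 14 was called, while Canx, on the list of mitochondria-ER contacts, was. Immediate early genes of the EGR, NR4A and AP-1 families had pair means of 0.66, -0.11 and -0.24, so experiment 1 stood apart from the other two.

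Slc15a2, a peptide transporter gene, was chosen after its values were seen. In the wt mouse of experiment 3 it was at 0.254 CPM in naive cells, 0.294 CPM at 24 h and 0.101 CPM at 48 h. In the other 5 mice it was at 6.53 to 55 CPM at these times. The genotype difference was not called at any time, and the cause was not tested.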
